A study of Mus musculus with 3 samples.

Results

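Most *Slc25a* genes encode carriers of the mitochondrial inner membrane, with exceptions such as the peroxisomal carrier *Slc25a17* and the outer-membrane protein *Slc25a46*. They were taken as the protein-coding GENCODE genes on mm10 whose symbols begin with Slc25a, which gave 47 of 21911 protein-coding genes. Ad4BP/SF-1, the nuclear receptor encoded by *Nr5a1*, was mapped by chromatin immunoprecipitation and sequencing in Leydig cells, the androgen-producing cells of the testis. The donors were male mice of the ICR strain, 9 weeks of age, and the cells were pooled from several animals, were enriched on a density gradient and were cultured with vehicle or with cAMP, which stimulates steroidogenesis. The dose and duration of the cAMP treatment are not given in the sources used here. Each condition had 1 library, so no difference between the lists could be set against replicate error. Binding and not expression was measured, so the cell type could be checked only through peaks. Of 8 Leydig cell genes 3 had a peak in both lists (*Star*, *Cyp11a1* and *Nr5a1*), beside 10.1% of all genes. Of 4 Sertoli cell genes *Amh* had a vehicle peak, beside 19.3% of all genes. Of 4 germ cell genes 0 had a peak in either list, beside 23.1% of all genes. So few genes say little about the cells present.

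Mitochondrial carriers exchange metabolites across a membrane that is otherwise closed to them. Citrate, malate, aspartate, glutamate, nucleotides, phosphate, coenzymes, acylcarnitines and glutathione each have carriers of their own. In steroid-producing cells the first steroidogenic enzyme, CYP11A1, lies in the mitochondrial inner membrane, and citrate exported from mitochondria supplies the cytosolic acetyl-CoA from which cholesterol is made. Ad4BP/SF-1 binds DNA as a monomer at a sequence that contains CAAGG.

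A peak counted for a carrier when it touched the gene or lay within 10 kb of one of its ends. The vehicle list, with 5721 peaks, placed 18 peaks at 15 of the 47 carriers, or 31.9% (95% exact Clopper-Pearson interval 19.1% to 47.1%). Of all protein-coding genes 19.3% had a vehicle peak by the same rule, a share that lies just inside this interval. The cAMP list, with 4025 peaks, placed 7 peaks at 6 carriers, or 12.8% (4.83% to 25.7%), beside 13.9% of all genes. In both lists 5 carriers had a peak, or 10.6%, beside 10.1% of all genes. In either list 16 carriers had a peak, or 34.0% (20.9% to 49.3%), beside 23.1% of all genes. The carriers' share was therefore above that of all genes in the vehicle list and close to it in the cAMP list. No carrier had more than 2 peaks in a list. In the vehicle list 3 carriers had 2, *Slc25a10* and *Slc25a25* among them, beside 4.97% of all genes with at least 2, and in the cAMP list *Slc25a30* did, beside 2.76%.

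Longer genes hold more peaks, so the same shares were taken within classes of gene length. The median carrier gene was 21486 bp long and the median of all genes was 17433 bp. Of the 13 carriers under 10 kb long, 4 had a vehicle peak (30.8%), beside 10.9% of all genes of that length. Between 10 and 25 kb, 5 of 13 carriers had one (38.5%), beside 17.4% of genes. Between 25 and 60 kb, 5 of 17 carriers had one (29.4%), beside 22.3%. Above 60 kb, 1 of 4 carriers had one, *Slc25a12*, beside 33.8%. The carriers' vehicle share was thus the higher one in the 3 shorter classes. In the cAMP list the counts, from the shortest class up, were 2 of 13, 2 of 13, 1 of 17 and 1 of 4 carriers, beside 6.78%, 12%, 16% and 27.3% of genes. When the shares of all genes were weighted to the carriers' length classes, they were 18.8% for the vehicle list and 13.3% for the cAMP list.

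The counts depended on the window. Within the gene body alone, 9 carriers had a vehicle peak and 3 a peak in both lists, beside 12.6% and 6.42% of all genes. Out to 50 kb, 24 carriers had a vehicle peak, 15 a cAMP peak, 11 both and 28 either, beside 36.7%, 28.8%, 22.5% and 43.1% of all genes. When the vehicle list was cut to its 4025 highest-scoring peaks, the length of the cAMP list, 12 carriers had a vehicle peak (25.5%), beside 14.7% of all genes.

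**Figure D1:**
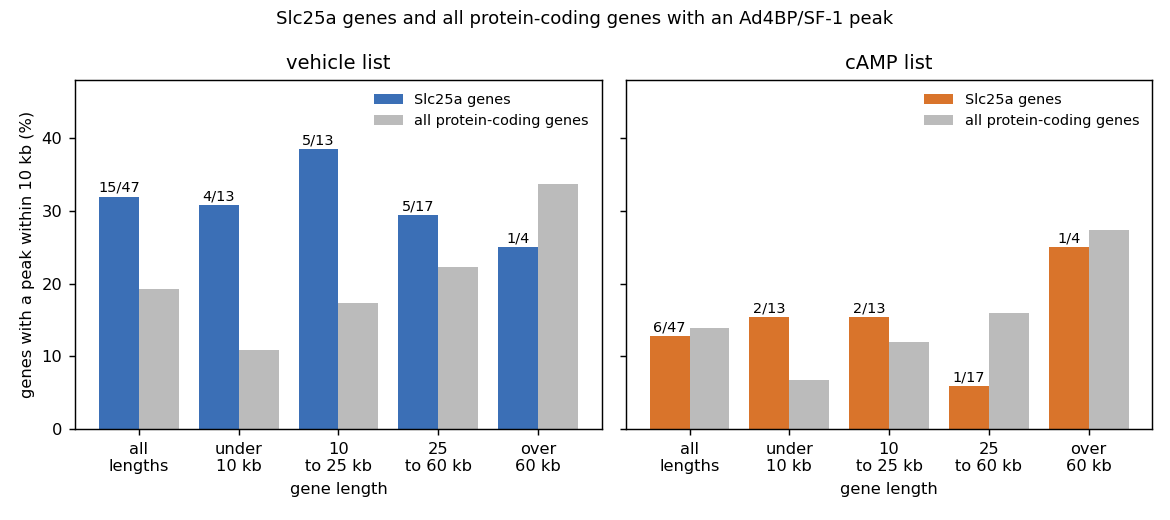
Percentage of genes with a peak within 10 kb (vertical axis) by class of gene length (horizontal axis), for the *Slc25a* genes (coloured bars, with counts) and all protein-coding genes (grey bars), in the vehicle list and the cAMP list. The vehicle bars of the carriers stand above the grey bars in every class but the one over 60 kb, while the cAMP bars for all lengths, 12.8% and 13.9%, are close.

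Each peak carries a score from the peak caller MACS, which grows as the p-value of its enrichment falls and starts at 50 in these lists. Scores separated a few carriers from the rest. Peaks that scored at least 100 lay at 6 carriers in the vehicle list, or 12.8%, beside 6.62% of all genes. No other carrier had one in the cAMP list, so that the share with one in either list was also 12.8%, beside 7.82% of all genes. In the cAMP list 4 carriers, or 8.51%, had a peak of that score, beside 4.01% of genes. These 4, which include *Slc25a30*, *Slc25a39* and *Slc25a12*, had one in both lists, or 8.51% of carriers beside 2.8% of genes. Counted as peaks, 38.9% (17.3% to 64.3%) of those at carriers in the vehicle list scored at least 100, beside 26.6% of the whole list. From the cAMP list 57.1% (18.4% to 90.1%) did, beside 23%. The median score of the vehicle peaks at carriers was 89.7, beside 72.4 over the whole list. In the cAMP list it was 104.7 at carriers, over 7 peaks, beside 67.9. The score rises with the depth of a library, which is unknown, so a score of one list cannot be read directly against that of the other.

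**Figure D2:**
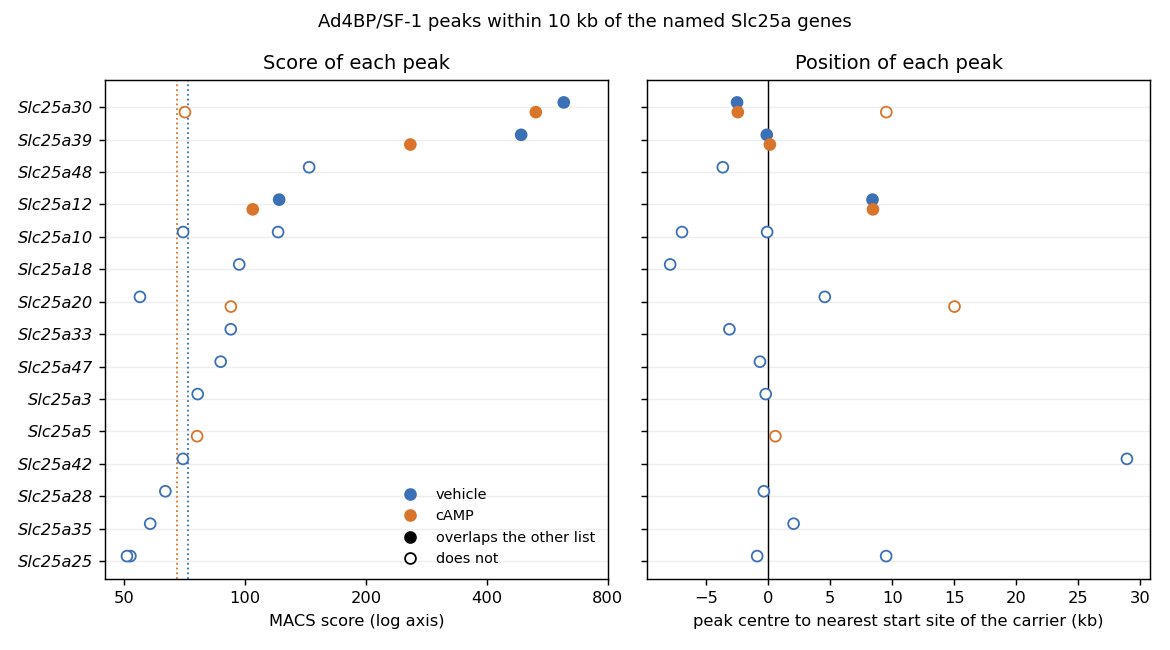
MACS score (left, log axis) and signed distance in kb from the peak centre to the nearest annotated start site of the carrier (right) for every peak at the carriers named in the text, in the vehicle (blue) and cAMP (orange) lists. Filled points overlap a peak of the other list, and dotted lines mark the median score of each whole list, 72.4 and 67.9. *Slc25a30* and *Slc25a39* stand far to the right of the other carriers.

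*Slc25a30* encodes an uncoupling-protein-like carrier that was first described in kidney, and it had the highest-scoring peak of the family in each list. The gene occupies chr14:75760117-75787037 of mm10, minus strand. The vehicle peak, from 75789201 to 75789919, scored 621.43, above 99.9% of the list, and ranked 8 among its 5721 peaks. The cAMP peak, from 75789125 to 75789868, scored 529.55, above 99.8% of its list, and also ranked 8. The centres of both peaks lay upstream of the start site, at 2523 bp and 2459 bp, and no other protein-coding gene lay within 10 kb of either. By the score of its highest peak *Slc25a30* ranked 10 among the 4224 genes with a vehicle peak and 10 among the 3055 with a cAMP peak. The peak contained 1 copy of the Ad4BP/SF-1 consensus. This was searched on both strands as TCAAGGTC, TCAAGGCC, CCAAGGTC or CCAAGGCC, of which the core is CAAGGTC or CAAGGCC.

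The cAMP list held another *Slc25a30* peak, from 75762514 to 75763119, centred in intron 9 and reaching into the last exon, with a score of 70.97, above 54.7% of the list. This peak lay 26082 bp from the nearest vehicle peak, and its nearest start site was that of the neighbouring gene *Cog3*. It contained CCAAGGTC.

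*Slc25a39*, a carrier required for the import of glutathione into mitochondria, had the peak with the next highest score. The gene occupies chr11:102402985-102407946, minus strand. Here the peaks lay across the annotated start sites. The vehicle peak ran from 102407326 to 102408014 and the cAMP peak from 102407485 to 102408156. Their scores were 486.85 and 258.04, above 99.7% and 98.2% of the lists, with ranks of 20 and 72. The cAMP score was 0.530 times the vehicle score. Of the 2167 vehicle peaks with a cAMP partner, 15.5% had a lower ratio, and the median ratio was 0.881. At *Slc25a30* and *Slc25a12* the ratio was 0.852 and 0.860, both close to that median. Both *Slc25a39* peaks contained the same 2 copies of TCAAGGTC, which are shown because they lie at the promoter, on the plus strand of mm10, 5′ to 3′, with the copy in capitals and fewer flanking bases where an annotated untranslated exon begins:
*Slc25a39*, chr11:102407667-102407714: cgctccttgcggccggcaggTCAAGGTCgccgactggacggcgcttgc
*Slc25a39*, chr11:102407851-102407880: gggtcggttctTCAAGGTCatcagagtgtg

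*Slc25a39* has a paralog, *Slc25a40*, which had no peak, and the vehicle peak closest to it was at a distance of 602413 bp. The mitochondrial iron importers differed in the same way. *Slc25a28* (mitoferrin-2) had a vehicle peak on chromosome 19 from 43674973 to 43675514, centred 362 bp upstream of its start site, with a score of 63.43 and 1 TCAAGGTC. *Slc25a37* (mitoferrin-1) had none in either list.

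*Slc25a12* encodes aralar, the aspartate and glutamate exchanger of the malate-aspartate shuttle, which carries reducing equivalents into mitochondria. The gene occupies chr2:71271063-71367749, minus strand, and is one of 4 carriers longer than 60 kb. Its peaks lay in the untranslated part of exon 18, the last. The vehicle peak ran from 71274114 to 71274666 and the cAMP peak from 71274133 to 71274571. They scored 121.72 and 104.65, above 82.2% and 79.1% of the lists. Their centres were 93359 bp and 93397 bp from the outermost 5′ end of the gene, and 8399 bp and 8437 bp from the nearest annotated start site, which is an internal one. The copy in this peak is shown because it lies far from the 5′ end of the gene, with 11 bases on either side:
*Slc25a12* exon 18, chr2:71274340-71274369, minus strand: atgcagcaaggTCAAGGTCaggatgttgca

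**Figure D3:**
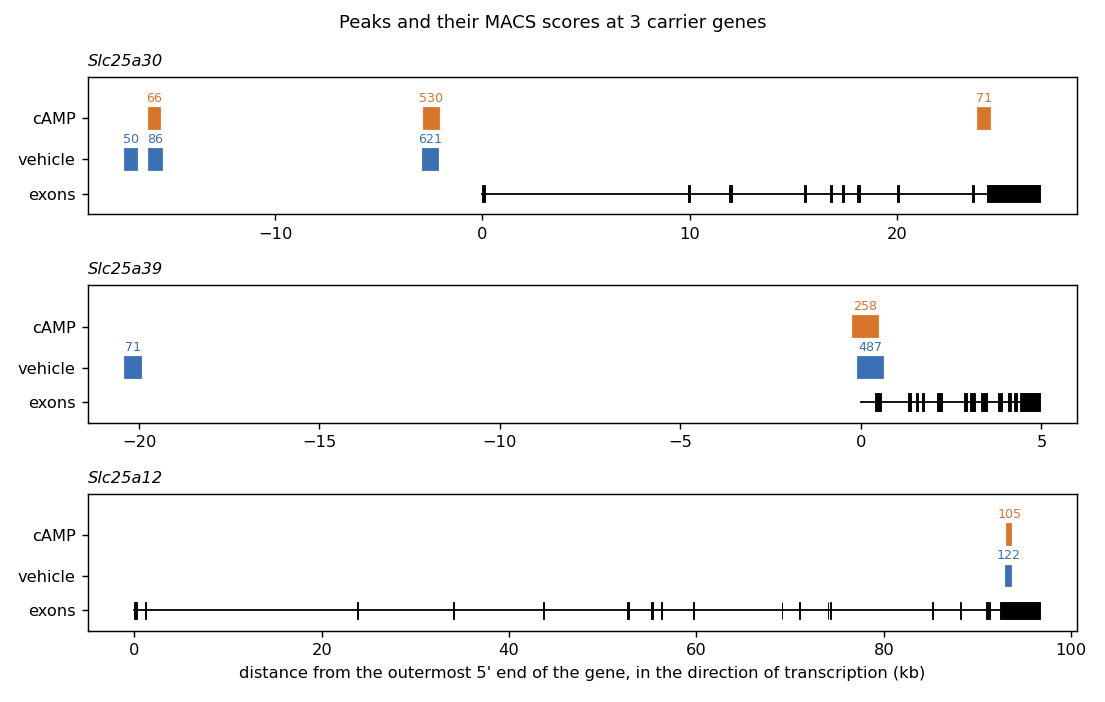
Exons of the principal transcript (black) and called peaks with their rounded MACS scores (blue, vehicle; orange, cAMP) at 3 carriers with a shared peak, against distance in kb from the outermost 5′ end of the gene in the direction of transcription, with 20 kb searched on either side. The shared peak lies upstream at *Slc25a30*, across the start at *Slc25a39* and in the last exon at *Slc25a12*.

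Grouped by substrate, the carriers with a peak were spread over the family. Of the 4 aspartate and glutamate carriers, *Slc25a12* had a peak in both lists and *Slc25a18*, a glutamate carrier, had a vehicle peak of 96.84. That peak lay 7916 bp upstream of *Slc25a18* in intron 18 of *Cecr2*. *Slc25a13* (citrin, the other aspartate and glutamate exchanger) and *Slc25a22* (the other glutamate carrier) had none. The nearest vehicle peak to *Slc25a22* was 34333 bp away.

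The citrate carrier *Slc25a1*, which exports citrate for the synthesis of acetyl-CoA in the cytosol, had no peak in either list. It occupies chr16:17925223-17928219, minus strand. The vehicle peak nearest to it was 329581 bp away and the cAMP peak nearest to it 212358 bp away. Of the 4 citrate, dicarboxylate and oxoglutarate carriers, *Slc25a10*, the exchanger of malate or succinate for phosphate, had vehicle peaks of 120.99 and 70.23. The higher-scoring peak, from 120484520 to 120485235 on chromosome 11, was centred 6963 bp upstream of *Slc25a10* and only 150 bp from a start site of *Mrpl12*, a mitochondrial ribosomal protein gene. The other, from 120497358 to 120497898, lay across an internal start site of *Slc25a10*. It contained 3 copies of CCAAGGCC, on both strands, each of which overlaps the next, shown because no other carrier peak has such a cluster, with all bases of the copies in capitals:
*Slc25a10* internal start, chr11:120497638-120497695, plus strand: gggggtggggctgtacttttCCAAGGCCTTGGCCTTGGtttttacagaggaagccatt

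The oxoglutarate carrier *Slc25a11* and the oxodicarboxylate carrier *Slc25a21* had no peak. The nearest to *Slc25a11* was a cAMP peak 16934 bp away.

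Of the 4 ADP/ATP and phosphate carriers, 2 had a peak, each near its start site and each in a different list. *Slc25a3*, which imports the phosphate used by ATP synthase, had a vehicle peak of 76.34 on chromosome 10 from 91123981 to 91124562, across its start site. The nearest cAMP peak was 1392176 bp away. *Slc25a5*, an exchanger of ADP for ATP, had a cAMP peak of 76.09 on chromosome X from 36796024 to 36796423, in intron 1 and centred 569 bp downstream of a start site. The nearest vehicle peak was 195561 bp away. *Slc25a4*, the heart and muscle form, and *Slc25a31*, the germ cell form, had none. The sites are shown because they are the promoter-proximal ones of the genes that supply phosphate and exchange ATP:
*Slc25a3*, chr10:91124216-91124263, minus strand: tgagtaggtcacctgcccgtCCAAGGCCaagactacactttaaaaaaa
*Slc25a5*, chrX:36796172-36796219, plus strand: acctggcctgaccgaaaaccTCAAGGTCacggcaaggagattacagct

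*Slc25a20*, the carnitine and acylcarnitine carrier that brings fatty acids to β-oxidation, had a peak in both lists, but not at the same place. The vehicle peak, from 108676861 to 108677237 on chromosome 9, lay in intron 3 with a score of 54.84 and held no copy of the consensus. The cAMP peak, from 108687256 to 108687760, lay beyond the 3′ end with a score of 92.33 and 1 TCAAGGCC. The peaks were 10019 bp apart, and the cAMP peak lay 1806 bp from a start site of *Prkar2a*, which encodes a regulatory subunit of protein kinase A.

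Of the 9 carriers of coenzymes, vitamins and nucleotides, 3 had a vehicle peak, among them *Slc25a33* (pyrimidine nucleotides) and *Slc25a42* (coenzyme A). The *Slc25a33* peak scored 92.27, was centred 3138 bp upstream and held 2 copies of CCAAGGTC. The *Slc25a42* peak scored 70.15, lay beyond the 3′ end in the last exon of *Tmem161a*, and held no full consensus. The carriers *Slc25a16*, *Slc25a17*, *Slc25a26*, *Slc25a32*, *Slc25a36* and *Slc25a51* had none. Of the 4 ATP-Mg/phosphate carriers only *Slc25a25* had peaks, both in the vehicle list and both near the lowest score of that list, at 51.91 in intron 1 and 50.91 centred 900 bp upstream, within exon 1 of *Naif1*. *Slc25a23*, *Slc25a24* and *Slc25a41* had none.

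Among 9 carriers whose substrate is unsettled or poorly known, *Slc25a48*, *Slc25a47* and *Slc25a35* had vehicle peaks of 144.53, 87.08 and 58.16. The *Slc25a48* peak, from 56434292 to 56435080 on chromosome 13, had the highest score of the carrier peaks without a partner in the other list. Its nearest cAMP peak was 14284 bp away. The *Slc25a47* peak, on chromosome 12 from 108850178 to 108850729, was centred 676 bp upstream of a start site internal to the annotated gene. Its centre lay outside the principal transcript and 14407 bp from the outermost 5′ end of the gene. The neighbouring carrier *Slc25a29*, which transports basic amino acids, had its 5′ end 14295 bp from that peak. It was the carrier nearest to the 10 kb limit from outside. The farthest peak inside the limit was that of *Slc25a18*, 7670 bp from its gene. All 5 carriers of other amino acids (*Slc25a2*, *Slc25a15*, *Slc25a29*, *Slc25a38* and *Slc25a44*) lacked a peak in both lists, where 23.1% of all genes had one in either. Also without a peak were the uncoupling-protein-like *Slc25a14* and *Slc25a27* and the unsettled carriers *Slc25a34*, *Slc25a43*, *Slc25a45*, *Slc25a46*, *Slc25a53* and *Slc25a54*. The absence of a call leaves weaker binding below the lowest listed score of 50 unmeasured. That lowest score stands for a smaller p-value than the threshold stated in the paper's methods.

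**Figure D4:**
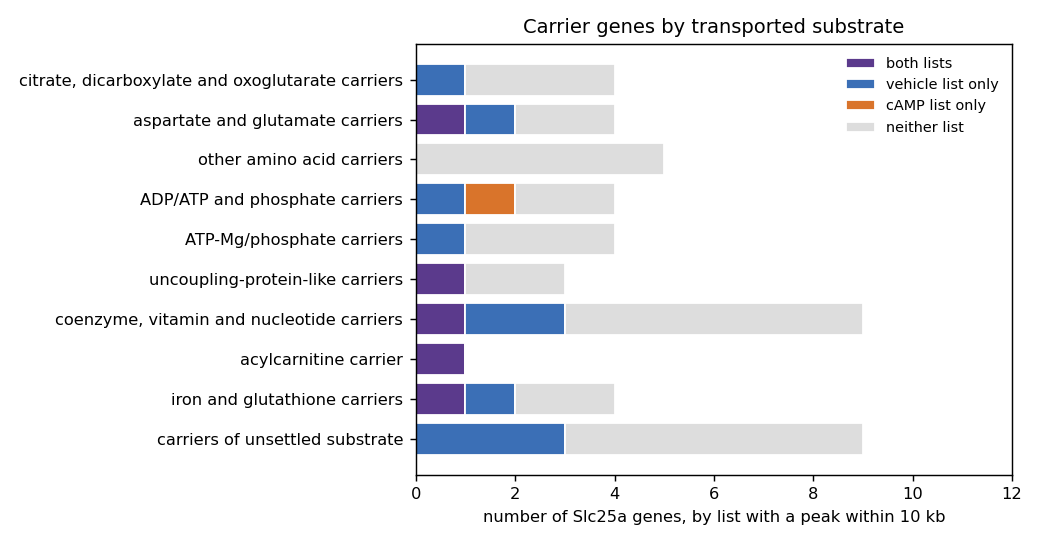
Number of *Slc25a* genes (horizontal axis) in each substrate class, by whether a peak lay within 10 kb in both lists (purple), the vehicle list only (blue), the cAMP list only (orange) or neither (grey). Carriers with a peak occur in 9 of the 10 classes, and the 5 other amino acid carriers have none. Of all genes 23.1% have a peak in either list. *Slc25a20* counts as both although its peaks do not overlap.

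Within 10 kb of carriers, sharing between the lists was seen only above a score of 100. Of the 18 vehicle peaks at carriers 4 overlapped a cAMP peak, or 22.2% (6.41% to 47.6%), beside 37.9% of all vehicle peaks. From the cAMP list 4 of 7 overlapped a vehicle peak, or 57.1% (18.4% to 90.1%), beside 53.8% of all cAMP peaks. Among only the peaks within 10 kb of any protein-coding gene, 39.3% of vehicle and 57.6% of cAMP peaks had a partner. None of the 11 vehicle peaks at carriers with a score under 100 had a partner, beside 27.0% of all vehicle peaks in that range. Of the 7 with a score of at least 100, 4 had one, beside 67.9% of all. In the cAMP list all 4 carrier peaks of at least 100 had a partner, beside 88.6% of all, and the 3 below 100 had none, beside 43.4%. The number of peaks called differs between the lists and their depth is unknown, and the part of either cannot be told apart from the treatment.

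**Figure D5:**
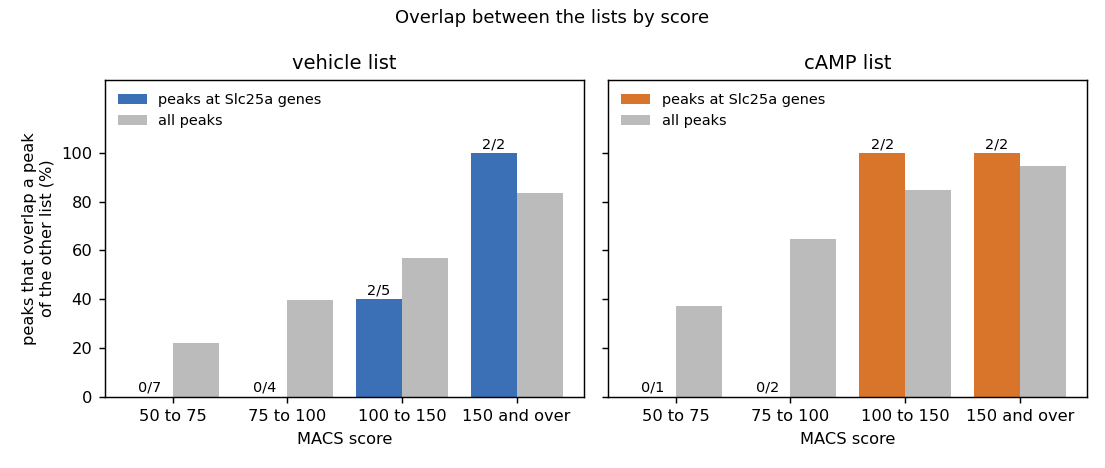
Percentage of peaks that share at least 1 bp with a peak of the other list (vertical axis) by MACS score (horizontal axis), for peaks at *Slc25a* genes (coloured bars, with counts) and all peaks (grey bars). In both lists the share over all peaks rises with score, to 83.5% and 94.8% at 150 and over. Every peak within 10 kb of a carrier that has a partner scores above 100.

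A larger share of the peaks lay near start sites at carriers than at all genes. In the vehicle list 7 of 18 were centred within 1 kb of a start site of their carrier, or 38.9%, beside 14.3% of all pairs of a gene and a peak within 10 kb. In the cAMP list 3 of 7 were, beside 12.9% of pairs. Measured from the outermost 5′ end of the gene the vehicle shares were 27.8% at carriers and 8.83% over all genes. With genes over 60 kb left out the vehicle shares, again from the nearest start site, were 41.2% and 18.6%. For cAMP peaks they were then 3 of 6 and 17.4%. The median distance of vehicle peaks was 2831 bp at carriers and 7412 bp over all pairs. For cAMP peaks it was 2459 bp and 7523 bp. These medians were not matched for gene length. Genes up to 60 kb long held 17 of the 18 vehicle peaks at carriers, beside 3527 of the 5948 vehicle pairs. Of the 18 vehicle peaks at carriers 11 lay within 10 kb of another protein-coding gene as well, 5 were centred inside one, and 5 were nearer to a start site of another gene than to that of the carrier. With each peak given only to the gene with the nearest start site, 13 carriers kept a vehicle peak and 5 a cAMP peak, beside 14.2% and 10.4% of all genes.

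The consensus was present in 16 of the 18 vehicle peaks at carriers, or 88.9% (65.3% to 98.6%), beside 80.4% of all vehicle peaks. All 7 cAMP peaks contained it (59.0% to 100%), beside 77.1% of all cAMP peaks. Among only the peaks within 10 kb of any protein-coding gene, 82.9% of vehicle and 82.3% of cAMP peaks contained it. The vehicle peaks at carriers without it were those of *Slc25a20* and *Slc25a42*, and the latter held 2 copies of the shorter core. More than 1 copy was found in 7 of the 18 vehicle peaks, or 38.9% (17.3% to 64.3%), beside 20.8% of all. The median distance of the nearest copy from the peak centre was 33 bp at carriers and 36 bp over all vehicle peaks. The longer TCAAGGTCA, a form searched after the data had been seen, was in 6 of 18 vehicle peaks at carriers, beside 36.6% of all, and in 5 of 7 cAMP peaks, beside 37.8%. It was in all 4 peaks that both lists share, beside 44.6% of all shared vehicle peaks, and in 2 of the 14 vehicle peaks without a partner, beside 31.8%. The palindromic cAMP response element TGACGTCA was in none of the 25 carrier peaks, and in 0.699% of all vehicle and 0.770% of all cAMP peaks.

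Other transporters of the mitochondrial membranes gave a comparison by the same window. Of 26 such genes, 6 had a vehicle peak (23.1%), 6 a cAMP peak (23.1%) and 5 both (19.2%), beside 19.3%, 13.9% and 10.1% of all genes. These shares were below the carriers' 31.9% in the vehicle list, and above their 12.8% in the cAMP list and 10.6% in both. *Mpc1*, a subunit of the carrier that brings pyruvate into mitochondria, had a vehicle score of 469.98 and a cAMP score of 210.08, while *Mpc2*, its partner subunit, had no peak. Vehicle and cAMP peaks also lay at *Vdac2*, an outer-membrane channel (114.87 and 74.29), at *Ucp2*, an uncoupling protein of the same family (74.94 and 64.22), and at *Sfxn5*, a sideroflexin (60.34 and 70.97). *Mcu*, the calcium uniporter, had only cAMP peaks, up to 100.44, and *Abcb6*, a transporter of the ABC family, had only a vehicle peak of 61.73. *Tspo*, a protein of the outer membrane that binds cholesterol, *Vdac1* and *Vdac3* had none.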

How the data were processed

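Ad4BP/SF-1 was immunoprecipitated from vehicle-treated and cAMP-treated Leydig cells, with 1 library per condition; the input DNA was not analysed here. Bowtie (version 0.12.8 in the submitters' processing notes) was used for mapping to mm10, reads with several positions were excluded, and peaks were called with MACS. The deposited values are peak positions and the authors' MACS score per peak, on a scale of 10 times minus log10 of the p-value. Depth per library is unknown, since the deposited lists give no read totals, and so is the precision of a score.

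Peaks were assigned to protein-coding GENCODE M21 genes of chromosomes 1 to 19, X and Y when they touched the gene or lay within 10 kb of one of its ends. Computation used Python 3.11.15, numpy 2.4.6, pandas 2.3.3, scipy 1.17.1 and matplotlib 3.10.9, and the functions were tested on simulated data. Where a share is given with an interval, this is the exact Clopper-Pearson interval at the 95% level, which covers counting error only. Sequences were read from the RefSeq genome GRCm38.p6, which is of C57BL/6J and not of ICR mice. Carriers were grouped by substrate. Every carrier with a peak is named except 1 that is not reported here by name, though it is counted, and *Slc25a1* and *Slc25a30* are named whatever they showed. The members and lists were chosen with earlier results of these data known. Windows of 0, 5, 20 and 50 kb, scores of at least 75 and 100, equal list lengths, assignment by the nearest start site, a stricter overlap, other forms of the consensus and the outermost 5′ end were tried as alternatives. With 1 library per condition no test of the treatment was possible, and no library could be left out. Coordinates count from 1.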

Additional observations from a re-analysis of the deposited data

How the results depend on the processing

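Of 48 values of the carrier results under alternatives, 37 stayed within 1.5 times the reported value for counts, or within its 95% interval for shares and medians. Some of the 37 lay at or past that factor. With 20 kb on either side 9 carriers had a cAMP peak (19.1%, beside 18.2% of all genes). At scores of at least 75, 10 carriers had a vehicle peak (21.3%, beside 10.7%), and 36.4% of the vehicle peaks at carriers had a partner of any score, beside 55.8% of all. The median distance of vehicle peaks from the outermost 5′ end was 4729 bp, and that of cAMP peaks of at least 100 from the nearest start site was 1501 bp. With the gene body only, 9 carriers had a vehicle peak and 3 a peak in both lists. With 50 kb on either side, 24 had a vehicle peak, 15 a cAMP peak, 11 both and 28 either. With scores of at least 100, 6 carriers had a vehicle peak and 6 a peak in either list. The share of carrier peaks with a partner was then 57.1% of vehicle and 100% of cAMP peaks, and 7 of 7 vehicle peaks at carriers (100%) held the consensus, beside 87.5% of all vehicle peaks of that score. Fewer peaks remain at the stricter score. Otherwise the cause was not tested. The carriers' vehicle share was above that of all genes under each window, score and assignment tried. In the cAMP list the shares were close by nearest start site (10.6% beside 10.4%) and with the gene body only (10.6% beside 9.16%). With 5 kb they were also close (12.8% beside 11.7%). At 10 kb with every peak, alone or with equal list lengths, the carriers' cAMP share was the lower one. At scores of at least 75 it was 12.8%, beside 6.72%. All settings recount the same few carriers and are not independent. No paired analysis was possible because each condition has 1 library. Unknown depth and a lowest score of 50 limit every statement that a carrier has no peak.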

Other observations

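*Slc25a30* had further peaks beyond the 10 kb window on the same side as its strongest peak. Both lists held a peak about 15.5 kb beyond the 5′ end of the gene, which ran from 75802513 to 75803117 with a vehicle score of 85.64 and from 75802588 to 75803142 with a cAMP score of 65.74. The vehicle list held another from 75803738 to 75804295, with a score of 50.23. For all of these the nearest protein-coding start site was that of *Slc25a30*. *Slc25a33* likewise had a vehicle peak 25681 bp and a cAMP peak 31370 bp upstream, with scores of 64.91 and 74.92 and with its own start site the nearest.

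Whether the consensus copies lie in sequence masked as repeats in the RefSeq genome was counted after the data had been seen. Of the 24 copies in vehicle peaks at carriers 7 were masked, or 29.2%, beside 36.1% of the 6017 copies in all vehicle peaks. The copies differed by their letters. Over all vehicle peaks 44.5% of TCAAGGTC and 54.7% of TCAAGGCC copies were masked, and 6.28% of CCAAGGTC and 6.98% of CCAAGGCC copies. At carriers the masked copies included that in the shared peak of *Slc25a12*, that of *Slc25a35*, and the copy in the cAMP peak at *Slc25a20*, whose surroundings are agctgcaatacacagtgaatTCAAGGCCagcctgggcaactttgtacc at chr9:108687460-108687507 of mm10, plus strand. The copies in the *Slc25a30* upstream peak and in the *Slc25a39* and *Slc25a5* peaks were not masked. Reads with several positions were excluded before the peaks were called, and the part of this step in these shares was not tested.

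The RefSeq promoters, from 250 bases before to 50 after a start site, were at hand for 36 of the 47 carriers. Of their 46 promoters 5 held the consensus, or 10.9%, beside 5.73% of all 32851 promoters of that table, which covers 27025 genes and so more than the protein-coding genes used elsewhere. They belonged to *Slc25a12*, *Slc25a22*, *Slc25a30*, *Slc25a31* and *Slc25a39*, and of these only *Slc25a39* had a peak across its start site.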
